A study of Homo sapiens with 9 samples.

Results

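Keratins are the intermediate filament proteins of epithelial cells, and 54 of the 60199 rows of the count table carried the symbol of a keratin gene (KRT followed by digits and, where there is one, a letter from A to C). Of these, 29 encode acidic type I keratins, 28 of them on chromosome 17 and 1, KRT18, on chromosome 12, and 25 encode basic type II keratins, all on chromosome 12. The members were grouped by textbook role into 3 basal keratins, 5 stress keratins, 5 keratins of simple or luminal epithelium, 12 suprabasal or mucosal keratins, 9 keratins of the hair root sheath, 16 hair keratins and 4 others. KRT86, a hair keratin, was not analysed here.

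A keratin filament is built from pairs of one type I and one type II chain, and an unpaired chain is unstable, so that cells normally make partners together. Basal cells of stratified and glandular epithelia are known for the pair KRT5 and KRT14 and for KRT15, luminal and other simple epithelial cells for KRT8, KRT18, KRT7 and KRT19, and KRT6A, KRT6B, KRT6C, KRT16 and KRT17 appear in skin and other epithelia upon wounding, stress and hyperproliferation. In the mammary gland the basal and luminal sets are used to tell the myoepithelial layer from the cells that face the lumen.

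Poly-A RNA of 9 libraries was compared, from 3 independent cultures of each of 3 lines. The CT line was parental MCF10A, a non-malignant human mammary epithelial line, grown in its usual medium with no BMP2 or IL6 added and labelled as not transformed. The MC26 line came from the unsorted parental population, whereas M1B26 came from cells first sorted on BMPR1B, a receptor of BMP ligands. Both were kept for long in medium with BMP2 and IL6, and both are labelled as transformed. The paper reports faster transformation of the sorted cells, seen within a few weeks of treatment, so the time to transformation differed between the lines as well. All 3 lines share the MCF10A background, in which CDKN2A is deleted and MYC amplified. M1B26 arose from 3 soft-agar clones that had been picked and expanded, so that the sort, the clone selection and the cytokines cannot be told apart in this line, and the cultures of a line are replicates of that one line. The comparisons asked how keratin mRNA differed in each transformed line from its parent, and between the transformed lines.

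Total counts ran from 21425118 to 80076597 per library, and 3 counts, taken as the floor of detection, were worth 0.131 CPM (counts per 1000000) in the shallowest library, CT replicate 2. All 8 epithelial markers (CDH1, EPCAM and others) were above 3 counts in every library, with summed levels of 446 to 523 CPM in CT, 288 to 347 in MC26 and 364 to 452 in M1B26. Of the markers of other cell types, the fibroblast gene THY1 and the T-cell gene CD3E were at 0 in every library, while the summed leukocyte list ran from 19.6 to 25.7 CPM in CT, from 41.3 to 51.7 in MC26 and from 62.6 to 84.3 in M1B26. The fibroblast list summed to 37.4 to 37.8 CPM in CT, 17.1 to 56.8 in MC26 and 28.5 to 39.9 in M1B26, and the endothelial list to 8.15 to 8.26, 2.19 to 3.77 and 3.65 to 6.59 CPM. The part of these lists in the keratin results was not tested. A mean of 5 CPM or more was reached by 10637 genes, of which 66 were at least 1.5-fold higher in M1B26 replicate 3 than in both other M1B26 libraries, among them KRT15, KRT16 and KRT17. The same held for 126 genes in MC26 replicate 3, with KRT15 and KRT16 among them. It also held for 31 genes in MC26 replicate 1, with KRT14 among them. In CT replicate 2, 94 genes were at least 1.5-fold lower than in both other CT libraries. Such genes numbered 84 in MC26 replicate 1 and 69 in MC26 replicate 3, and no keratin was among them in these 3 libraries. CT replicate 2 was still the lowest CT library for all tested keratins but KRT13. Keratins took 1.67% of its counts, the lowest share in CT, so this library sets the lower end of most CT ranges below.

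Most keratin genes were silent or nearly so in MCF10A and in its derivatives. Of the 54 members, 21 were at 0 counts in every library, 6 had counts but never more than 3, 8 passed 3 counts somewhere but were too low to be tested, and 19 were tested, 9 of type I and 10 of type II. All 3 basal and all 5 stress keratins were among those tested, as were 3 of the 5 simple keratins. None of the 9 root sheath keratins was tested and 7 of them were at 0 throughout, and 11 of the 16 hair keratins never exceeded 3 counts. Together the members took 1.89% ± 0.193 (SD, n = 3) of all counts in CT, 2.41% ± 0.256 in MC26 and 1.73% ± 0.0843 in M1B26. The MC26 libraries, at 2.69%, 2.32% and 2.21%, were all above the highest CT library, at 2.01%, and the M1B26 range of 1.63% to 1.80% overlapped that of CT.

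Among the 19 tested keratins, 11 passed edgeR's quasi-likelihood test in MC26 against CT (adjusted p under 0.05 over all 15717 genes tested), 5 higher and 6 lower. The background was high in this comparison, as 38.7% of all tested genes passed (18.8% higher and 19.9% lower). In M1B26 against CT 13 keratins were called, 7 higher and 6 lower, where the share of all genes called was 48.9% (25.2% higher and 23.7% lower). In M1B26 against MC26 13 were called, 6 higher and 7 lower, against 39.5% of all genes (21.2% higher and 18.4% lower). With total counts as the scale in place of TMM factors, 35.8% and 39.6% of the called genes were higher in MC26 and in M1B26 than in CT, where TMM gave 2947 of 6081 and 3959 of 7688. Calls of at least 2-fold numbered 8, 8 and 5 among the keratins, where 10.8%, 11.7% and 8.17% of all genes reached that size. The ranges of the lines did not overlap for 11, 13 and 14 of the tested keratins, beside 50.3%, 59% and 53.5% of all genes. Median log2 fold changes of the 19 were 0.21, 0.01 and -0.31, with medians over all tested genes of 0.00 in each comparison, so the keratins moved in both directions rather than as a block. Both comparisons with CT use the same 3 CT libraries. In bulk RNA, fewer cells expressing a gene and less of its RNA per cell cannot be told apart.

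**Figure D1:**
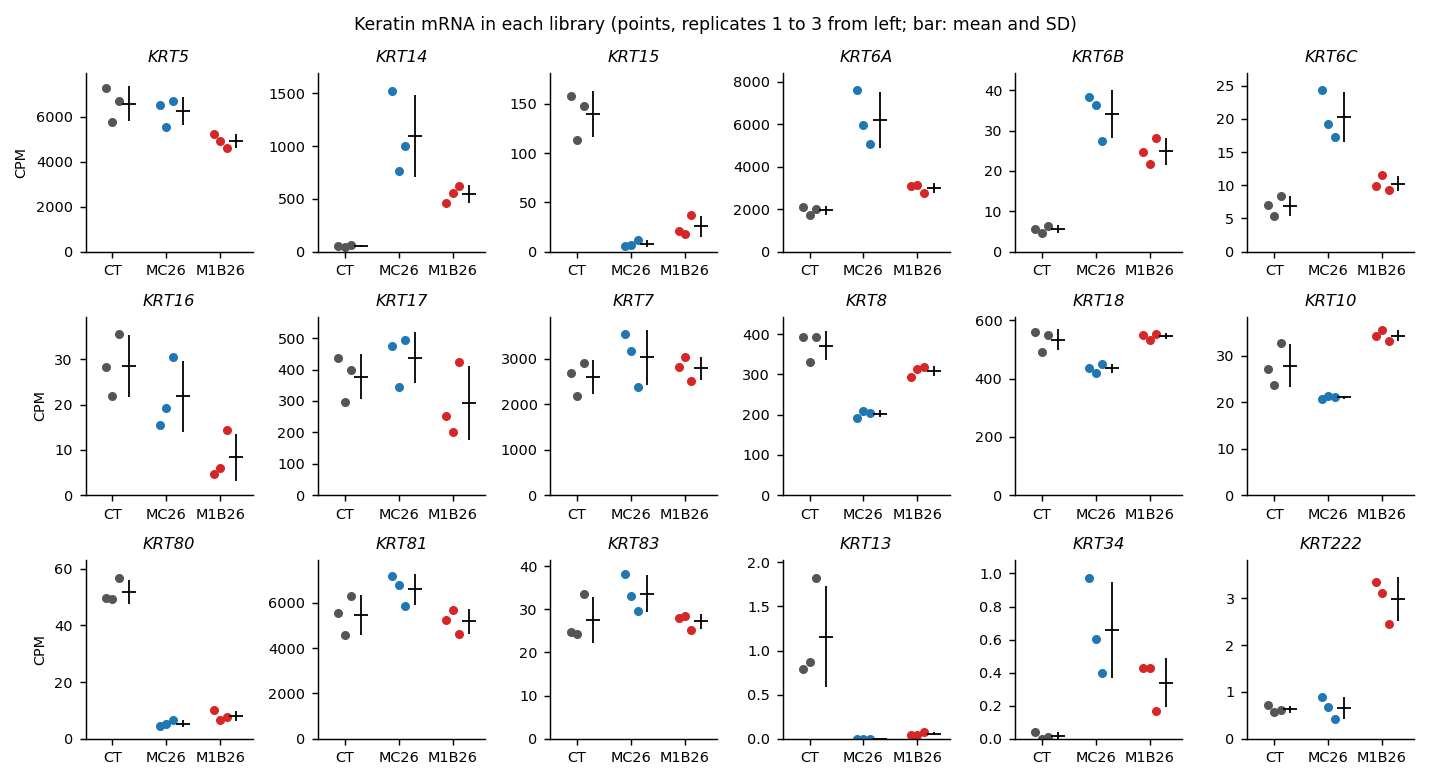
Level of each named keratin with tested values in every library, as CPM on linear axes that start at 0 and differ between panels, with the 3 libraries of each line as points and the mean and SD beside them. KRT14 and KRT15 move apart in both transformed lines, KRT6A, KRT6B and KRT6C are highest in MC26, and KRT222 is raised in M1B26.

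The basal keratins did not move together. KRT14 was far higher and KRT15 far lower in both transformed lines, while KRT5, the type II partner of both, changed by less than 1.5-fold. KRT14, the type I keratin of basal cells (chr17:41582279-41586895, minus strand, GRCh38), was measured at 58.3, 42.2 and 61.7 CPM in the CT libraries, at 1521, 766 and 1004 CPM in MC26 and at 461, 558 and 625 CPM in M1B26. No library of one line reached the range of another, and MC26 replicate 1 stood above the other MC26 libraries. The log2 fold change in edgeR was 4.34 (SE 0.253, adjusted p = 8.75e-07) in MC26 against CT, or 20.2-fold. It was 3.33 (SE 0.242, adjusted p = 2.07e-06) in M1B26 against CT, and M1B26 lay below MC26 by 2-fold (log2 -1.001, SE 0.222, adjusted p = 0.0049 in edgeR).

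KRT15, a type I keratin known from basal and progenitor cells of stratified epithelia (chr17:41513745-41522529, minus strand), took the opposite course. Its levels were 158, 114 and 148 CPM in CT, 6.22, 6.62 and 11.98 CPM in MC26 and 21.5, 18.1 and 37.6 CPM in M1B26. The 3 ranges did not overlap, with MC26 lowest and M1B26 in between. The fall was 16.9-fold in MC26 (log2 -4.08, SE 0.313, edgeR adjusted p = 4.43e-06) and 5.42-fold in M1B26 (log2 -2.44, SE 0.284, adjusted p = 5.2e-05), and KRT15 was 3.11-fold higher in M1B26 than in MC26 (log2 1.64, SE 0.298, adjusted p = 0.00159). These 3 calls held in each of the 9 fits that left out 1 library.

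KRT5, the type II keratin of basal cells (chr12:52514575-52520530, minus strand), stayed among the most abundant keratins. It was measured at 7299, 5774 and 6684 CPM in CT, 6534, 5564 and 6694 CPM in MC26, and 5220, 4919 and 4633 CPM in M1B26. CT and MC26 overlapped (log2 -0.07, SE 0.0966, edgeR adjusted p = 0.585), whereas every M1B26 library lay below both other lines. The fall in M1B26 was 1.34-fold against CT (log2 -0.42, SE 0.0968, adjusted p = 0.00435 in edgeR) and 1.27-fold against MC26 (log2 -0.35, adjusted p = 0.0154). Against MC26 the call was lost without M1B26 replicate 2 (log2 -0.34, adjusted p = 0.051) and without M1B26 replicate 3 (log2 -0.30, adjusted p = 0.0616).

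The ratio of the partners shows the shift within each library. On RPKM, here CPM divided by the exonic length of the gene in kb, KRT5 exceeded KRT14 by 67.4 ± 7.78 times (SD, n = 3) in CT, 3.31 ± 0.857 times in MC26 and 5.01 ± 1.08 times in M1B26. KRT14 and KRT15 stood at a ratio of 1.02 ± 0.0721 in CT, and at 648, 306 and 222 in the MC26 libraries and 56.9, 81.5 and 43.98 in the M1B26 libraries. The exonic length used for KRT15 (5969 bases) is longer than its canonical transcript (1712 bases), which moves the level of this ratio in all libraries alike but not its change between lines.

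**Figure D2:**
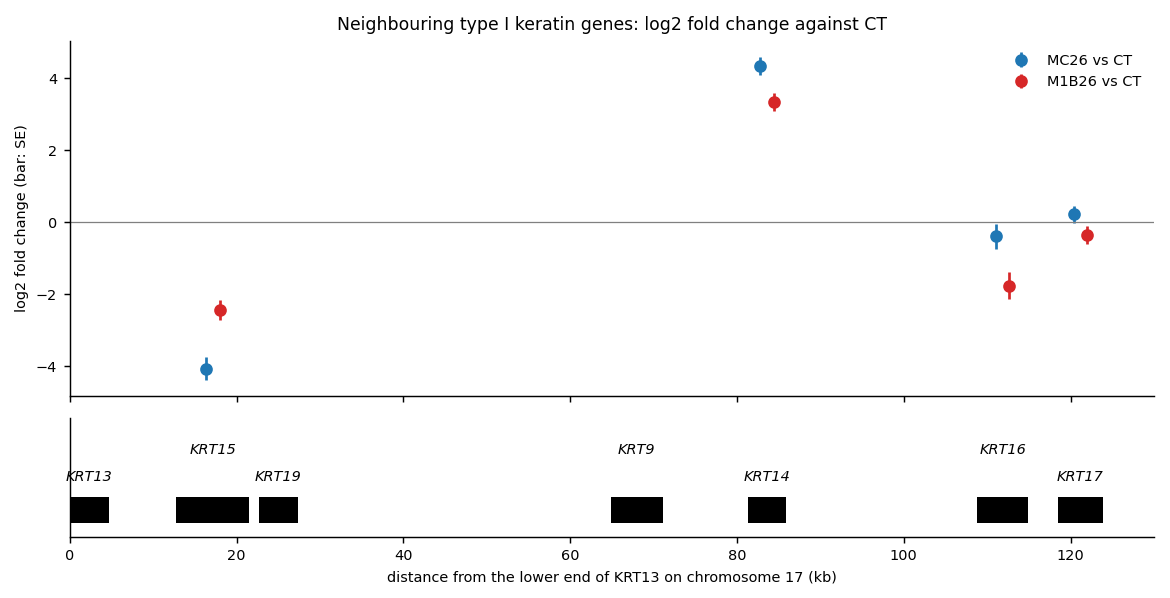
log2 fold change against CT with its SE (upper panel) for the tested keratin genes between KRT13 and KRT17 on chromosome 17, at their distance in kb from the lower end of KRT13, with the gene bodies in the lower panel. KRT15 lies below 0 and KRT14 above 0 in both lines, and KRT16 and KRT17 lie nearer to 0 except KRT16 in M1B26. KRT13 has no point because it was at 0 in MC26, and KRT19 and KRT9 were not tested.

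KRT13, KRT15, KRT19, KRT9, KRT14, KRT16 and KRT17 lie in this order within chr17:41500981-41624842, all on the minus strand. The sharpest rise and the sharpest falls among the type I keratins with more than 1 CPM in some line came from genes of this segment. Most tested type I keratins above that level lie in it, however. KRT34, which stayed below 1 CPM but had a larger log2 fold change in MC26 against CT (4.70) than KRT14, lies outside it. Over the 843 tested genes of chromosome 17 the median log2 fold change was 0.00 in MC26 against CT, but 0.48 in M1B26 against CT and 0.48 in M1B26 against MC26, where the calls of M1B26 against CT were 543 higher and 56 lower. The 8 tested keratins of chromosome 17 had medians of -0.17, -0.04 and 0.06 in the 3 comparisons. The part of this chromosome-wide shift in the M1B26 values of single type I keratins was not tested. The 737 tested genes of chromosome 12 had medians of 0.02, 0.00 and -0.04, and the 10 tested type II keratins there medians of 0.25, 0.00 and -0.33.

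The KRT6 genes, type II keratins induced in wounded and hyperproliferative epithelium, were raised in both transformed lines, most in MC26. KRT6A, KRT6B and KRT6C are near-identical neighbours on chromosome 12, and how reads that fit several of them were counted is not given in the sources used here. The coding sequences, each of 1695 bases, were 97.5% identical between KRT6A and KRT6B, 97.9% between KRT6A and KRT6C and 98.5% between KRT6B and KRT6C. The stretch from coding base 626 to 745 is shown because it separates the 3 genes better than their first bases do, and capitals mark the bases that are not the same in all 3 (GENCODE release 44 canonical transcripts, GRCh38).
KRT6A: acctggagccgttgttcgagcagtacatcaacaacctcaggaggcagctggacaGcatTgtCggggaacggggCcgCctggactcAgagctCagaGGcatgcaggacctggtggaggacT
KRT6B: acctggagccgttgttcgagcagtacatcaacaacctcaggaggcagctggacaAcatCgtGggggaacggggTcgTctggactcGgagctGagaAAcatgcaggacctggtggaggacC
KRT6C: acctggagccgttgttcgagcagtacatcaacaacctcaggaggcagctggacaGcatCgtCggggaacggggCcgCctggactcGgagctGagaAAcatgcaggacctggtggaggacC
Within this stretch KRT6A differs from KRT6B at 10 bases and from KRT6C at 6, and KRT6B from KRT6C at 4. Of all windows of 100 bases along the KRT6A transcript, 10.7% were found unchanged in KRT6B and 17.7% in KRT6C, and 23.8% of the KRT6B windows were found in KRT6C. Values of KRT6B and KRT6C, which are low beside KRT6A, are therefore uncertain.

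KRT6A was measured at 2099, 1715 and 2031 CPM in CT, 7631, 5962 and 5047 CPM in MC26 and 3084, 3163 and 2756 CPM in M1B26. The 3 lines did not overlap, and the order was CT, M1B26, MC26. The rise was 3.19-fold in MC26 (log2 1.67, SE 0.137, edgeR adjusted p = 6.76e-06) and 1.54-fold in M1B26 (log2 0.62, SE 0.134, adjusted p = 0.00285), and M1B26 was 2.07-fold below MC26 (log2 -1.05, SE 0.135, adjusted p = 0.000192).

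KRT6B was at 5.75, 4.59 and 6.43 CPM in CT, 38.4, 36.4 and 27.3 CPM in MC26 and 24.7, 21.7 and 28.3 CPM in M1B26. Both transformed lines lay above CT throughout, by 5.96-fold in MC26 (log2 2.58, SE 0.161, edgeR adjusted p = 1.26e-06) and 4.36-fold in M1B26 (log2 2.12, SE 0.159, adjusted p = 2.48e-06). Their own ranges overlapped, and the difference between them (log2 -0.45, adjusted p = 0.0307 in edgeR) was lost without MC26 replicate 1 (log2 -0.35, adjusted p = 0.11), MC26 replicate 2 (log2 -0.40, adjusted p = 0.106), M1B26 replicate 1 (log2 -0.44, adjusted p = 0.0815) or M1B26 replicate 2 (log2 -0.36, adjusted p = 0.125).

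KRT6C was at 7.10, 5.33 and 8.31 CPM in CT, 24.4, 19.2 and 17.2 CPM in MC26 and 9.94, 11.5 and 9.35 CPM in M1B26. It rose 2.87-fold in MC26 (log2 1.52, SE 0.167, edgeR adjusted p = 5.21e-05) and was 1.98-fold lower in M1B26 than in MC26 (log2 -0.98, adjusted p = 0.000948). The smaller rise in M1B26 against CT (log2 0.54, adjusted p = 0.0206 in edgeR) was lost without CT replicate 1 (log2 0.54, adjusted p = 0.0561), CT replicate 2 (log2 0.40, adjusted p = 0.0597) or M1B26 replicate 2 (log2 0.46, adjusted p = 0.0809).

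KRT6C kept a near-constant proportion to KRT6A and KRT6B did not. The RPKM ratio of KRT6A to KRT6C was 286 ± 39.2 (SD, n = 3) in CT, against 305 ± 10.7 in MC26 and 293 ± 17.3 in M1B26, a difference within the spread of the CT libraries. The ratio of KRT6A to KRT6B was 277 ± 24.7 in CT, against 144 ± 13.8 in MC26 and 96.6 ± 19.2 in M1B26, with no overlap between the lines. Whether reads of KRT6A were counted as KRT6C was not tested.

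**Figure D3:**
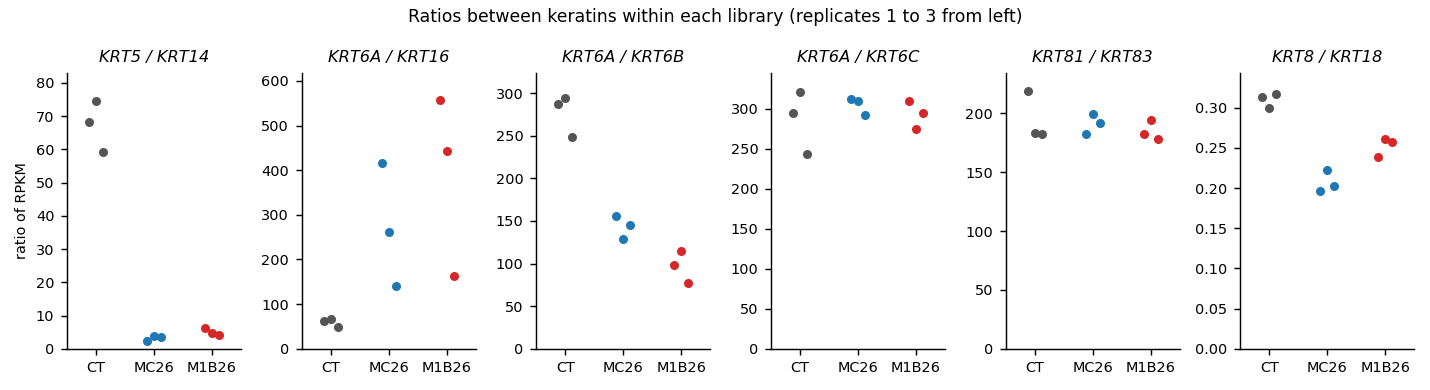
Ratio of RPKM between pairs of keratins in each library, on linear axes that start at 0, with 3 points per line. The ratios of KRT6A to KRT6C and of KRT81 to KRT83 overlap across the lines, whereas those of KRT5 to KRT14, KRT6A to KRT6B and KRT8 to KRT18 separate CT from both transformed lines.

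The type I stress keratins did not follow the KRT6 genes. KRT16 and KRT17 lie next to each other on chromosome 17, and KRT16 is the usual partner of the KRT6 proteins. Over the whole transcripts 3.84% of the 100-base windows of KRT14 were found unchanged in KRT16 and none in KRT17. Mean levels of KRT14 far exceeded those of KRT16 in the transformed lines, at 1097 against 21.8 CPM in MC26 and 548 against 8.36 CPM in M1B26. Even this small share could therefore weigh on the KRT16 count, and whether reads of KRT14 were counted as KRT16 was not tested.

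KRT16 was at 28.4, 21.8 and 35.5 CPM in CT, 15.6, 19.4 and 30.5 CPM in MC26 and 4.69, 6.04 and 14.4 CPM in M1B26. CT and MC26 overlapped (log2 -0.40, SE 0.358, edgeR adjusted p = 0.408), and all M1B26 libraries were below both, although M1B26 replicate 3 was well above the other M1B26 libraries. The fall in M1B26 against CT was 3.41-fold (log2 -1.77, SE 0.375, adjusted p = 0.00263 in edgeR), and without M1B26 replicate 3 the log2 value was -2.42 (adjusted p = 0.000204). Against MC26 it was 2.58-fold (log2 -1.37, SE 0.375, adjusted p = 0.0142 in edgeR). That difference read -2.02 (adjusted p = 0.00111) without M1B26 replicate 3 and was lost without M1B26 replicate 1 (log2 -1.08, adjusted p = 0.051) or 2 (log2 -1.18, adjusted p = 0.0631).

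KRT17 was at 436, 297 and 400.0 CPM in CT, 475, 346 and 493 CPM in MC26 and 252, 202 and 425 CPM in M1B26. All 3 ranges overlapped because M1B26 replicate 3 lay far above the other M1B26 libraries, and no comparison passed the edgeR test (adjusted p = 0.523, 0.238 and 0.0815). Without M1B26 replicate 3 KRT17 was lower in M1B26 than in CT (log2 -0.73, adjusted p = 0.0112 in edgeR) and than in MC26 (log2 -0.95, adjusted p = 0.00502). The comparison with CT and that with MC26 also passed with all libraries when no filter on low counts was used (adjusted p = 0.0201 and 0.000129). The RPKM ratio of KRT6A to KRT16 was 59.2 ± 9.57 (SD, n = 3) in CT, against 272 ± 138 in MC26 and 388 ± 203 in M1B26, with wide spread but every transformed library above every CT library.

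**Figure D4:**
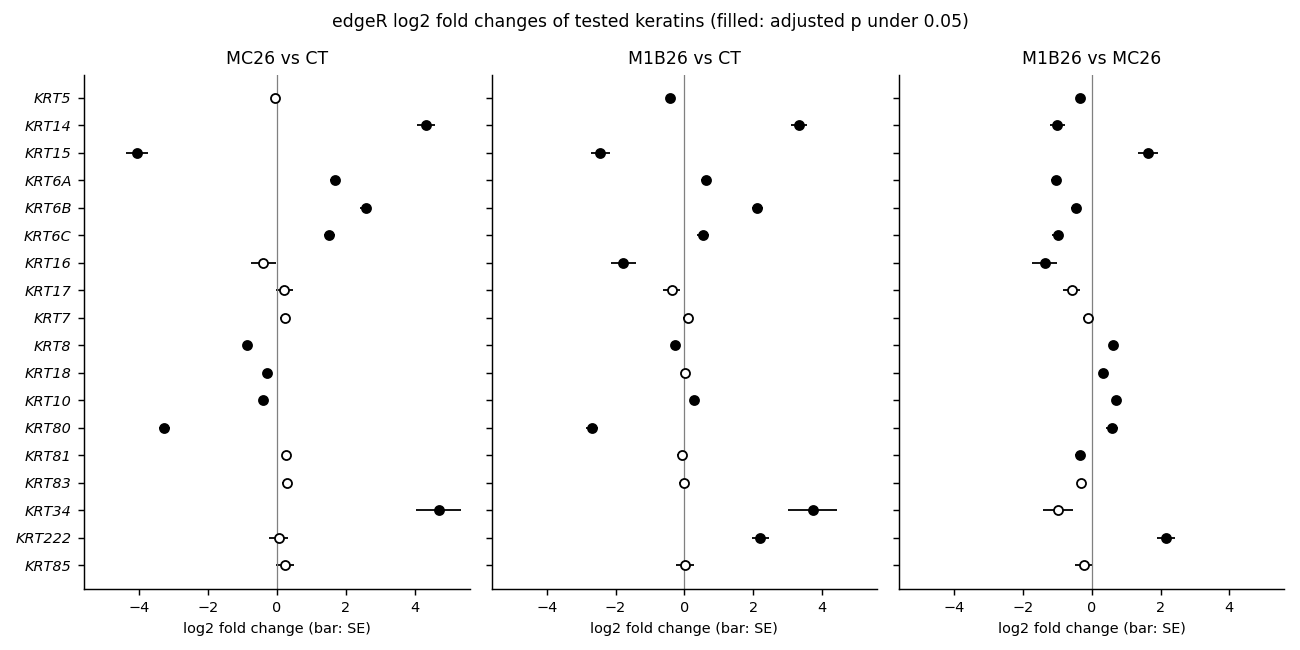
edgeR log2 fold change with its SE for 18 of the 19 tested keratins, with one panel per comparison (each transformed line against CT, then M1B26 against MC26) and filled points for an adjusted p under 0.05. KRT14, KRT34 and KRT6B lie to the right and KRT15 and KRT80 to the left in both comparisons with CT, and KRT13 is left out because MC26 was at 0. The KRT34 values against CT rest on at most 3 counts in any CT library.

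The tested keratins of simple and luminal epithelium, KRT7, KRT8 and KRT18, changed by less than 2-fold, and KRT8 and KRT18 were lowest in MC26. KRT8 (type II) and KRT18 (type I) are usual partners whose genes lie head to head on chromosome 12 and overlap on opposite strands by 1084 bases in GENCODE release 44. KRT8 was at 392, 331 and 392 CPM in CT, 192, 210 and 205 CPM in MC26 and 294, 313 and 319 CPM in M1B26. The lines did not overlap, and MC26 was lowest. KRT8 fell 1.84-fold in MC26 (log2 -0.88, SE 0.0790, edgeR adjusted p = 1.32e-05) and was 1.52-fold higher in M1B26 than in MC26 (log2 0.61, SE 0.0787, adjusted p = 0.000203). The 1.20-fold difference between M1B26 and CT (log2 -0.27, adjusted p = 0.015 in edgeR) was lost without CT replicate 1 (log2 -0.23, adjusted p = 0.0673), CT replicate 3 (log2 -0.23, adjusted p = 0.0554) or M1B26 replicate 1 (log2 -0.23, adjusted p = 0.071).

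KRT18 moved the same way with a smaller step. It was at 558, 492 and 551 CPM in CT, 436, 421 and 451 CPM in MC26 and 549, 534 and 552 CPM in M1B26. MC26 lay below both other lines, 1.22-fold below CT (log2 -0.29, SE 0.0660, edgeR adjusted p = 0.00527) and 1.25-fold below M1B26 (adjusted p = 0.00312), while CT and M1B26 overlapped (log2 0.03, SE 0.0659, adjusted p = 0.732). The RPKM ratio of KRT8 to KRT18 was 0.310 ± 0.00948 (SD, n = 3) in CT, against 0.207 ± 0.0137 in MC26 and 0.253 ± 0.0118 in M1B26, with no overlap between lines. The count of KRT8 is divided by 6881 exonic bases there, against 1784 in its canonical transcript, so the level of the ratio depends on the annotation and its order across lines does not.

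KRT7, a type II keratin of ducts and simple epithelia, was at 2698, 2191 and 2919 CPM in CT, 3545, 3180 and 2373 CPM in MC26 and 2812, 3036 and 2524 CPM in M1B26. The ranges overlapped and no comparison passed the edgeR test (log2 0.22, 0.10 and -0.12, each with SE 0.144, adjusted p = 0.25, 0.592 and 0.533). Without MC26 replicate 3 the difference of MC26 from CT passed (log2 0.37, adjusted p = 0.028 in edgeR). The KRT7 gene overlaps KRT86 on the same strand by 2887 bases, and the part of such reads in its count was not tested. KRT19, a type I keratin of luminal cells, was close to the floor of detection, with 8, 1 and 6 counts in CT, 0, 5 and 7 in MC26 and 6, 12 and 12 in M1B26, and was not tested. KRT20, a keratin of gut and urothelium, was at 0 throughout, which allows up to 3 counts in a library. Floors, such limits and the counting intervals given for KRT13 and KRT34 cover counting error only.

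The suprabasal and mucosal keratins held 2 tested members of 12. KRT13, which pairs with KRT4 in mucosal epithelium, had 55, 20 and 149 counts in CT, 0, 0 and 0 in MC26 and 2, 2 and 4 in M1B26. All CT libraries were far above all transformed libraries, so that KRT13 was at least 15.5-fold lower in MC26 than in CT, computed against 3 counts per library (adjusted p = 8.97e-05 in edgeR). M1B26 was also lower than CT (adjusted p = 0.000142 in edgeR), and the ratio of the summed counts, scaled by library size, was 22.5 for CT over M1B26, with an exact 95% counting interval of 11.2 to 52.9. No fold is given between the transformed lines, which were at or close to the floor (adjusted p = 0.0518). That comparison passed without CT replicate 1 (adjusted p = 0.0372 in edgeR) or CT replicate 3 (adjusted p = 0.0161), and with total counts as the scale (0.0476), without a filter on low counts (0.0101) and in DESeq2 (0.0281). KRT4 never exceeded 8 counts.

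KRT10, the type I keratin of differentiating epidermis (chr17:40818117-40822614, minus strand), was at 27.2, 23.6 and 32.8 CPM in CT, 20.6, 21.4 and 21.0 CPM in MC26 and 34.2, 35.4 and 33.1 CPM in M1B26. MC26 was below and M1B26 above every CT library, although M1B26 cleared the highest CT library only narrowly. KRT10 fell 1.33-fold in MC26 (log2 -0.41, SE 0.104, edgeR adjusted p = 0.00923) and was 1.63-fold higher in M1B26 than in MC26 (log2 0.70, SE 0.104, adjusted p = 0.000468). The call of M1B26 against CT (log2 0.29, adjusted p = 0.0366 in edgeR) was lost in 6 of the 9 fits that left out 1 library. These were the fits without CT replicate 1 (log2 0.26, adjusted p = 0.118), CT replicate 2 (0.18, adjusted p = 0.0979), MC26 replicate 2 (0.29, adjusted p = 0.052), M1B26 replicate 1 (0.30, adjusted p = 0.0807), M1B26 replicate 2 (0.27, adjusted p = 0.104) and M1B26 replicate 3 (0.32, adjusted p = 0.0532). It was also lost with total counts as the scale (log2 0.20, adjusted p = 0.107). KRT1 and KRT2, the usual type II partners of KRT10, had at most 5 and 0 counts in any library.

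Of the hair keratins, KRT81 was abundant in every line. KRT81, a type II keratin of the hair cortex (chr12:52285913-52291534, minus strand), was at 5560, 4554 and 6303 CPM in CT, 7164, 6802 and 5836 CPM in MC26 and 5244, 5694 and 4603 CPM in M1B26. Both transformed lines overlapped CT (adjusted p = 0.102 and 0.618 in edgeR), and MC26 against CT passed without CT replicate 3 (log2 0.39, adjusted p = 0.0331) or MC26 replicate 3 (log2 0.35, adjusted p = 0.0424). M1B26 lay below MC26 by 1.27-fold (log2 -0.35, SE 0.122, adjusted p = 0.0407 in edgeR), a call that was lost in 5 of the 9 fits that left out 1 library, with adjusted p between 0.0543 and 0.145. The 5 libraries were CT replicate 1 (log2 -0.36), MC26 replicate 1 (-0.29), MC26 replicate 2 (-0.33), M1B26 replicate 1 (-0.36) and M1B26 replicate 3 (-0.27). The call was also lost with TMM factors from genes outside chromosome 17 (log2 -0.33, adjusted p = 0.0532 in edgeR), and MC26 against CT passed without a filter on low counts (log2 0.27, adjusted p = 0.0235). In 15 of 18 alternatives KRT81 stayed uncalled in MC26 against CT.

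KRT81 lies wholly within KRT86 on the opposite strand, and 29.4% of the 100-base windows of its transcript were found unchanged in that of KRT86, so that the KRT81 count may hold reads of either gene. KRT83, a neighbouring hair keratin with no 100-base window in common with KRT81, was at 24.7, 24.2 and 33.6 CPM in CT, 38.2, 33.1 and 29.6 CPM in MC26 and 28.0, 28.5 and 25.1 CPM in M1B26. No comparison of KRT83 passed the edgeR test (adjusted p = 0.114, 0.901 and 0.088). MC26 against CT passed without CT replicate 3 (log2 0.47, adjusted p = 0.0102 in edgeR), and M1B26 against MC26 without CT replicate 3 (log2 -0.32, adjusted p = 0.0289) or MC26 replicate 3 (log2 -0.39, adjusted p = 0.0441). Without a filter on low counts the same comparisons passed (adjusted p = 0.0336 and 0.0243), as did M1B26 against MC26 in a fit of those 6 libraries alone (adjusted p = 0.035). KRT83 stayed uncalled in 16 of 18 alternatives in MC26 against CT and in 14 of 18 in M1B26 against MC26. The RPKM ratio of KRT81 to KRT83 was 195 ± 20.7 (SD, n = 3) in CT, against 191 ± 8.64 in MC26 and 185 ± 8.53 in M1B26, with overlapping ranges.

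KRT34, a type I hair keratin (chr17:41377669-41382306, minus strand), appeared at a low level in both transformed lines. It had 3, 0 and 1 counts in CT, 39, 23 and 17 in MC26 and 19, 18 and 9 in M1B26. No CT library exceeded 3 counts and every transformed library did. Both transformed lines passed the edgeR test against CT, with adjusted p = 0.000294 for MC26 and 0.00144 for M1B26. With 4 counts in CT the size is known only roughly, and the ratio of summed counts, scaled by library size, was 28.5 in MC26 (exact 95% counting interval 10.7 to 107) and 14.3 in M1B26 (5.22 to 54.6). Without CT replicate 1, which held 3 of the 4 counts, the fitted log2 value, which depends on the prior count at such levels, moved from 4.70 to 5.76 in MC26 and from 3.73 to 4.78 in M1B26, and the calls remained. The transformed lines overlapped (log2 -0.97, adjusted p = 0.102 in edgeR), with a call without MC26 replicate 3 (log2 -1.23, adjusted p = 0.0482). KRT85, a hair keratin outside the rule for named genes and added after its values were seen, stayed at 9 to 51 counts per library and passed no test.

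The RefSeq table of promoters, 250 bases before to 50 after an annotated start of each gene on GRCh38.p14, matched 34 of the 54 keratins, of which 5 were tested and 29 were silent or too low. KRT14, KRT15, KRT80, KRT81 and the KRT6 genes were not among the 34, so the shares below do not describe their promoters. The letters TATAAA, searched on both strands, were found in 20 of the 34 (58.8%), against 11.5% of all 35112 promoters of the same length. They were in 18 of the 29 untested members and in 2 of the 5 tested ones, KRT34 and KRT10, and not in KRT5, KRT8 or KRT85. The KRT8 window (chr12:52926420-52926719) lies within the annotated gene (chr12:52897187-52949954, minus strand), not at the end that faces KRT18. GGGCGG, the core of an SP1 site, was found in 6 (17.6%, against 45% of all promoters), the AP-1 letters TGANTCA in none (7.71% of all), TTCNNNGAA in 2 (5.88%, against 7.66%), and GGCGCC in none (19.2% of all). The promoter of KRT34 is printed as one that holds the TATA letters and belongs to a gene raised in both lines, with those letters in capitals (chr17:41382257-41382556, minus strand, GRCh38.p14).
KRT34: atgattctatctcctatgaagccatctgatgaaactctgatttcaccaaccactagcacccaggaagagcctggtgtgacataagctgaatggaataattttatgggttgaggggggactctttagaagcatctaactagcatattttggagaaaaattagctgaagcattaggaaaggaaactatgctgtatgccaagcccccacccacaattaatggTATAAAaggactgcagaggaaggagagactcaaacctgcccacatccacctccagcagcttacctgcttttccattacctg
A match of letters is a description of the sequence and not a measured binding site.

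The 2 tested members outside these roles moved in opposite directions in M1B26 against CT. KRT80, a type II keratin of many epithelia linked to advancing differentiation (chr12:52168996-52192014, minus strand), was at 49.5, 49.3 and 56.8 CPM in CT, 4.38, 5.23 and 6.52 CPM in MC26 and 10.1, 6.68 and 7.54 CPM in M1B26. All transformed libraries lay far below CT, 9.64-fold in MC26 (log2 -3.27, SE 0.169, edgeR adjusted p = 3.98e-07) and 6.42-fold in M1B26 (log2 -2.68, SE 0.162, adjusted p = 6.39e-07). M1B26 was 1.5-fold above MC26 (log2 0.59, adjusted p = 0.0181 in edgeR), a call lost without MC26 replicate 1 (log2 0.46, adjusted p = 0.0674), MC26 replicate 2 (log2 0.57, adjusted p = 0.0602) or M1B26 replicate 1 (log2 0.40, adjusted p = 0.0721). KRT80 overlaps the long non-coding gene LINC00592 on the opposite strand.

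KRT222, a keratin-related type I gene (chr17:40654665-40665181, minus strand), was at 0.715, 0.568 and 0.610 CPM in CT, 0.895, 0.680 and 0.424 CPM in MC26 and 3.36, 3.12 and 2.46 CPM in M1B26. CT and MC26 overlapped (adjusted p = 0.903 in edgeR) and all M1B26 libraries were above both. The rise in M1B26 was 4.63-fold against CT (log2 2.21, SE 0.246, adjusted p = 3.88e-05 in edgeR) and 4.47-fold against MC26 (log2 2.16, SE 0.251, adjusted p = 0.000102). A gene annotated on the same strand covers most of KRT222, so reads of either cannot be told apart where they overlap.

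Levels per length placed type II far above type I mRNA in all lines. Summed over the members, the RPKM of type I keratins was 0.0639 ± 0.00214 (SD, n = 3) of that of type II in CT, 0.101 ± 0.0190 in MC26 and 0.0968 ± 0.0215 in M1B26. Single libraries gave 0.0660, 0.0639 and 0.0618 in CT, 0.112, 0.0786 and 0.111 in MC26 and 0.0843, 0.0846 and 0.122 in M1B26, so every transformed library was above every CT library and the transformed lines overlapped. Without KRT6A, KRT6B, KRT6C, KRT14, KRT16 and KRT17 the mean ratio came to 0.0411 in CT, against 0.0269 in MC26 and 0.0432 in M1B26, so the higher ratio of MC26 was carried by the genes left out. With canonical transcript lengths, an alternative chosen after seeing the data, the ratio was 0.0913, 0.118 and 0.119.

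On exonic length KRT14 took the place of KRT18 as the leading type I keratin of MC26 and M1B26, which in M1B26 did not hold on canonical transcript lengths. KRT14 made up 6.40% ± 0.509 (SD, n = 3) of type I RPKM in CT, 60.2% ± 6.77 in MC26 and 44.7% ± 3.33 in M1B26. KRT18 made up 47.0% ± 3.11, 18.5% ± 4.06 and 33.1% ± 3.99, KRT17 33.7% ± 2.41, 18.6% ± 2.56 and 17.6% ± 4.73, and KRT15 6.26% ± 0.269, 0.181% ± 0.0760 and 0.777% ± 0.209. Among type II keratins KRT81 held the first place in each line on exonic length, with 48.5%, 43.4% and 47.3% of type II RPKM in CT, MC26 and M1B26. KRT6A held 11.5% in CT, against 26.7% in MC26 and 18.1% in M1B26, while KRT5 held 27.4%, 19.4% and 21.0%.

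**Figure D5:**
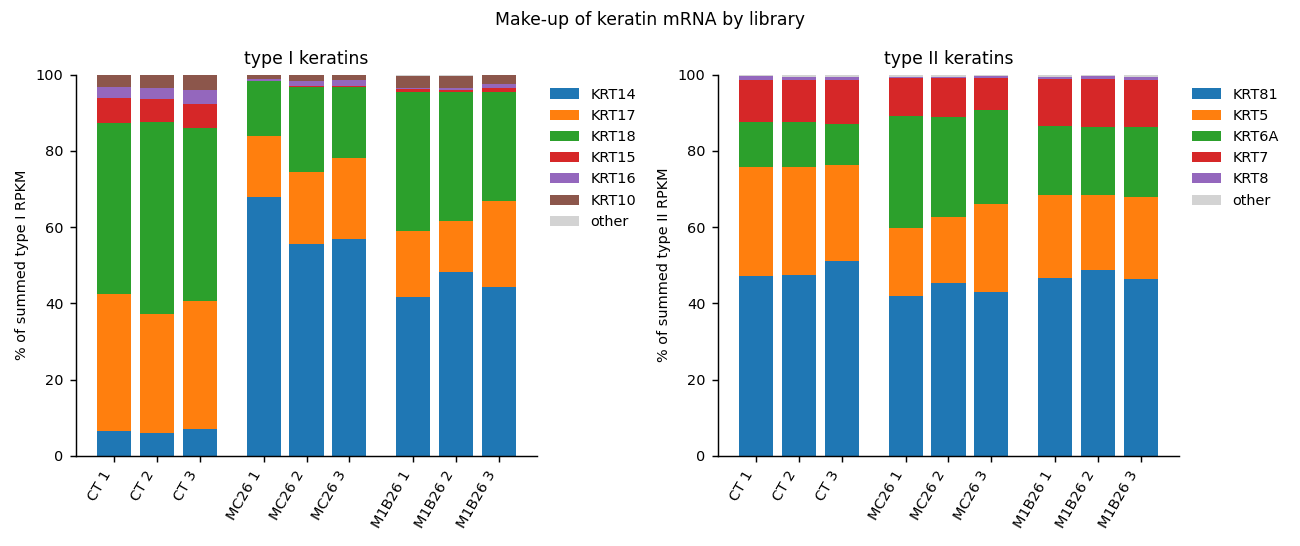
Share of summed type I RPKM (left) and type II RPKM (right) held by each keratin in the 9 libraries, as stacked bars that add up to 100%, with all members not named in grey. KRT14 widens from under 7% of type I in every CT library to over 40% in every transformed library, and KRT6A widens among type II in MC26.

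In CT the order of levels on exonic length was KRT81 (2837 ± 455 RPKM, SD, n = 3), KRT5 (1593 ± 186), KRT6A (666 ± 70.0) and KRT7 (651 ± 93.4), where KRT6A and KRT7 did not differ beyond their spread. KRT6A passed KRT5 in MC26 (2123 against 1516 RPKM) but not in M1B26 (1026 against 1191 RPKM). The order depends on the lengths used. With canonical transcript lengths KRT5 (2799 ± 273 per kb, SD, n = 3) and KRT6A (2692 ± 568) were level in MC26 within their spread. On these lengths KRT5 was first in CT (2943 ± 343 per kb, SD, n = 3), level with KRT81 (2837 ± 455) within their spread, and KRT7 (1602 ± 230) was above KRT6A (844 ± 88.8). In M1B26 KRT18 (386 ± 6.98) was then above KRT14 (335 ± 50.4), by about the spread of KRT14, whereas on exonic length KRT14 (243 ± 36.5 RPKM) was above KRT18 (178 ± 3.21).

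Rows with a KRT symbol that are not members, mostly pseudogenes and antisense genes, numbered 149, of which 78 had counts, and held 0.503% as many counts as the members. KRT87P, a pseudogene next to KRT81, was the largest of them at 81.2 ± 19.1 CPM (SD, n = 3) in CT, 102 ± 5.02 in MC26 and 97.8 ± 10.5 in M1B26. KRT16P6, a pseudogene of KRT16, had 2 counts in all CT libraries together, 108 in MC26 and 72 in M1B26. KRT16 itself passed no test in MC26 against CT, and whether the KRT16P6 reads came from KRT14 was not tested.

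Genes that tie keratins to desmosomes and hemidesmosomes or bind them were described from a list of 17, of which 16 were tested. In MC26 against CT 7 were higher and 6 lower (81.2% called, where 38.7% of all genes were), in M1B26 against CT 4 and 7 (68.8%, against 48.9%), and in M1B26 against MC26 3 and 7 (62.5%, against 39.5%). PPL, periplakin, which links keratin to the cell border in differentiating cells, was at 129, 109 and 121 CPM in CT, 1.44, 4.42 and 14.9 CPM in MC26 and 7.94, 6.08 and 11.4 CPM in M1B26. Both transformed lines lay far below CT, and MC26 replicate 3 stood well above the other MC26 libraries. The fall in edgeR was -4.10 on the log2 scale in MC26 (SE 0.552, adjusted p = 0.000223), -5.36 without MC26 replicate 3 (adjusted p = 2.22e-06), and -3.81 in M1B26 (adjusted p = 0.000196). PPL did not pass between the transformed lines (log2 0.29, adjusted p = 0.703 in edgeR), but did without MC26 replicate 3 (log2 1.55, adjusted p = 0.00682).

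EPPK1, epiplakin, a cytolinker that binds keratins, went down from 40.3 ± 9.91 CPM (SD, n = 3) in CT to 24.6 ± 1.56 in MC26 (log2 -0.72, adjusted p = 0.00596 in edgeR) and 9.20 ± 1.62 in M1B26 (log2 -2.14, adjusted p = 4.99e-06). DSP, desmoplakin of the desmosome, was lower in both lines (log2 -0.37, adjusted p = 0.00501 in MC26 and log2 -1.06, adjusted p = 3.34e-06 in M1B26 in edgeR). COL17A1, the collagen of the hemidesmosome, rose from 276 ± 21.7 CPM to 1163 ± 266 in MC26 (log2 2.08, SE 0.141, adjusted p = 2.1e-06 in edgeR) and 757 ± 57.6 in M1B26 (log2 1.46, adjusted p = 1.28e-05). The integrin genes ITGA6 and ITGB4 rose by 1.39 and 0.87 on the log2 scale in MC26 (adjusted p = 3.46e-06 and 0.000271 in edgeR) and by 0.93 and 1.21 in M1B26 (adjusted p = 3.43e-05 and 1.82e-05). PLEC, plectin, which joins keratin to the hemidesmosome, was lower in M1B26 than in MC26 (log2 -0.81, adjusted p = 0.00685 in edgeR). Against CT it did not pass in M1B26 (log2 -0.26, adjusted p = 0.294) and was higher in MC26 (log2 0.56, adjusted p = 0.0392). That rise was lost without CT replicate 1 or 2, MC26 replicate 1 or 2, or M1B26 replicate 2. SFN, a 14-3-3 protein of epithelial cells, rose in MC26 (log2 0.99, adjusted p = 0.00028 in edgeR) and in M1B26 (log2 1.08, adjusted p = 9.72e-05).

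Of 12 transcription factor genes known to act on keratin genes 10 were tested, with 4 higher and 5 lower in MC26 against CT (90% called, where 38.7% of all genes were), 1 and 5 in M1B26 against CT (60%, against 48.9%), and 1 and 4 in M1B26 against MC26 (50%, against 39.5%). TP63, the factor of basal epithelial identity, rose from 31.9 ± 3.56 CPM (SD, n = 3) in CT to 78.1 ± 0.984 in MC26 (log2 1.29, SE 0.0835, edgeR adjusted p = 1.54e-06) and 79.0 ± 4.48 in M1B26 (log2 1.31, adjusted p = 9.36e-07). EHF, an epithelial ETS factor, was at 42.7, 48.0 and 39.8 CPM in CT, 0.920, 2.01 and 7.25 CPM in MC26 and 3.97, 3.20 and 9.07 CPM in M1B26. Replicate 3 was the highest library of each transformed line, and all of them lay below CT. The log2 fall in edgeR was -3.66 in MC26 (adjusted p = 0.000489) and -4.89 without MC26 replicate 3 (adjusted p = 1.52e-05), and -2.98 in M1B26 (adjusted p = 0.000837) and -3.59 without M1B26 replicate 3 (adjusted p = 0.000917). Between the transformed lines EHF passed only without MC26 replicate 3 among the fits that left out 1 library (log2 1.91, adjusted p = 0.00804 in edgeR, against 0.68 and 0.365 with all libraries). GATA3, a luminal factor, was lower in MC26 (log2 -0.45, adjusted p = 0.00663 in edgeR) and in M1B26 (log2 -1.18, adjusted p = 9.65e-06), and so was TFAP2C (log2 -0.90, adjusted p = 0.00023, and log2 -1.01, adjusted p = 6.67e-05). KLF4 rose in MC26 (log2 0.99, adjusted p = 0.00456 in edgeR).

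Of 16 other intermediate filament genes 8 were tested, with 0 higher and 3 lower in MC26 against CT, a share (37.5%) close to the 38.7% of all genes. In M1B26 against CT 1 was higher and 4 lower (62.5%, against 48.9% of all genes), and in M1B26 against MC26 1 and 3 (50%, against 39.5%). LMNB1, a nuclear lamin, was at 159 ± 4.79 CPM (SD, n = 3) in CT and 123 ± 7.68 in M1B26 (log2 -0.37, adjusted p = 0.000957 in edgeR).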

How the data were processed

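Poly-A RNA of 9 MCF10A-derived cultures had been sequenced in paired-end mode. The authors deposited raw read counts per gene symbol in 1 table, made after alignment to GRCh38; the submitters' processing notes name STAR 2.7.3a and Salmon 1.1.0, and the methods name the latter for protein-coding genes. The table, however, has whole numbers and rows of non-coding genes, so which program made it is unclear, and its strand setting and handling of multiply aligned reads are not given in the sources used here. Groups and replicate numbers came from sample titles, and 0 columns were left unmapped. Counts were tested in R 4.3.3 with edgeR 4.0.16 (TMM factors 0.968 to 1.07, filterByExpr with a minimum count of 10, 15717 genes, glmQLFit and glmQLFTest over all 9 libraries with line as the only term, 2-sided, Benjamini-Hochberg adjustment over all genes, threshold 0.05), after a check on simulated counts. The SE was the absolute log2 fold change divided by the square root of F, and the biological coefficient of variation was 10.4%. CPM used TMM-scaled library sizes, and RPKM divided CPM by exonic length in GENCODE release 44. Precision rests on 3 cultures per line, and p-values measure the spread between them. Basal, stress and simple keratins were named whatever their values, as were other members with a line mean of at least 1 CPM or a call of at least 2-fold; examples in companion lists came from the up to 4 largest called changes per comparison at a mean of at least 5 CPM. The members and lists were chosen with earlier results of these data known. Alternatives were RLE factors, no factors, TMM factors without chromosome 17, no filter on low counts, a filter at a mean count of 50, DESeq2 1.42.0, only the 6 libraries compared, a replicate block, a threshold of 0.01 and leaving out each library. Sequences were read from GENCODE transcripts and the RefSeq promoter table.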

Additional observations from a re-analysis of the deposited data

Results flagged for a closer look

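For 13 keratins the transformed lines differed from each other when M1B26 was tested directly against MC26 in edgeR, which means that their changes from CT were of unequal size. M1B26 was higher for KRT222 (log2 2.16), KRT15 (1.64), KRT10 (0.70), KRT8 (0.61), KRT80 (0.59) and KRT18 (0.32). It was lower for KRT16 (log2 -1.37), KRT6A (-1.05), KRT14 (-1.001), KRT6C (-0.98), KRT6B (-0.45), KRT5 (-0.35) and KRT81 (-0.35). The background in this comparison was 39.5% of all tested genes. The lines also differ in sort, clone selection and time to transformation, which cannot be told apart from one another.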

How the results depend on the processing

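The numbers of keratins called stayed within 1.5 times of the values given in all alternatives but 1. In M1B26 against MC26, 8 keratins were called at an adjusted p under 0.01. Leaving out 1 library gave 11 to 13 calls in MC26 against CT, 10 to 13 in M1B26 against CT and 9 to 15 in M1B26 against MC26. Deviations of log CPM from the line mean correlated between -0.162 and 0.3 over the 9 pairs of libraries with the same replicate number. Pairs with different numbers ran from -0.272 to 0.268. These values cannot settle whether the numbers pair the samples, because the deviations within a line depend on each other. With the replicate block the counts of calls were 11, 14 and 15. In M1B26 the replicate block brought KRT17 under the threshold against CT (adjusted p = 0.0424) and MC26 (0.00965), and against MC26 also KRT13 (0.0187) and KRT34 (0.0427), and took KRT81 out (0.0631). The ratio of type I to type II was 0.0681 in CT without division by length. Without the KRT6 genes, KRT14, KRT16 and KRT17 it was 0.0411, 0.0269 and 0.0432 in CT, MC26 and M1B26. On canonical lengths it was 0.0913 in CT and 0.119 in M1B26. Directions turned only for log2 values that passed no test. With total counts as the scale, KRT222 in MC26 against CT read -0.0209 and KRT18 in M1B26 against CT -0.0638. With 1 library left out, the values that turned in at least 1 fit ran from -0.2231 to 0.2985 for KRT222 and from -0.1547 to 0.0125 for KRT5 in MC26 against CT. In M1B26 against CT they ran from -0.0297 to 0.0598 for KRT18, from -0.0144 to 0.1898 for KRT7, from -0.2006 to 0.0334 for KRT81 and from -0.1068 to 0.152 for KRT83. KRT7 in M1B26 against MC26 ran from -0.2689 to 0.0086. The cause was not tested. Of the log2 values of named keratins, 437 kept direction and call with 1 library left out, 28 lost a call, 11 gained one and 10 turned. Under the other settings 452 kept both, 11 lost a call, 13 gained one and 2 turned. Low counts limit KRT13, KRT34 and KRT19, and shared sequence limits KRT6B, KRT6C, KRT16 and KRT81. Overlap with another gene on the same strand limits KRT7 and KRT222.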
